A study of Mus musculus with 4 samples.

Results

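Infarcted hearts of running mice were compared with uninfarcted hearts of running mice, nucleus by nucleus, in 10543 of the 18781 nuclei of the series. The members are the barcodes of the running library (5832 nuclei) and of the running infarct library (4711 nuclei) with at least 300 detected genes and at most 20% of their UMIs from mitochondrially encoded genes, less predicted doublets. A UMI is a molecular tag, so that each one counts 1 captured RNA molecule. The study asked how voluntary exercise alters the cells of the heart, with and without a myocardial infarction. Wild-type C57BL/6J mice of both sexes were 8 weeks old when wheel running began and ran for 16 weeks. The running library pooled the ventricles of 2 such mice. In the running infarct library the ventricles of 4 mice were pooled, which had infarct surgery after the running period and were collected 2 weeks after it. A sedentary pair of libraries, with the same pool sizes and the same surgery but no wheel, serves here only for a second reading of the infarct difference. Ventricles were snap frozen, nuclei were sorted on a DNA dye, and each group filled 1 well of a droplet instrument for 3' sequencing. Each side is therefore 1 library with no replicate: no test could be made, mice within a pool cannot be told apart, and surgery, the extra 2 weeks and the well cannot be separated. The intervals given are at 95% and take in the error of counting alone, leaving out the spread between mice.

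An infarct kills cardiomyocytes, and the following weeks bring macrophages and lymphocytes into the tissue, activate fibroblasts into collagen-secreting myofibroblasts and leave a scar. The less abundant cells take part as well. The endocardium lines the chambers and signals to the muscle through neuregulin, endothelin and BMP ligands. Lymphatic vessels drain fluid and immune cells, pericytes and smooth muscle cells wrap the microvessels and the arteries, and the mesothelium, the epicardial surface layer, can be reactivated after injury.

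Depth and composition of the libraries differed. The median nucleus held 3746.5 UMIs in the running and 2837 UMIs in the running infarct library, and the share of UMIs from mitochondrially encoded genes was 9.48% and 3.87%. Nuclei with at least 2 UMIs from 4 Y-linked genes made up 35.2% of the running and 20.3% of the running infarct library, so the mix of male and female nuclei was not the same in the pools, and its part in the differences was not tested. The libraries shared 7 barcodes. Median UMIs per nucleus were close in endocardial-like nuclei (3803 and 3753) and lymphatic endothelial-like nuclei (4297 and 4178), but lower after infarct in pericyte-like nuclei (3689 and 1481) and cardiomyocyte-like nuclei (8419 and 2657.5).

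Macrophage-like, lymphocyte-like and mesothelial-like nuclei took larger shares of the running infarct library, while lymphatic endothelial-like and fibroblast-like nuclei took smaller ones. A class was named X-like from lists of marker genes. Of the running library 3.31% of nuclei (2.87 to 3.80) were macrophage-like, against 13.3% (12.4 to 14.3) of the running infarct library, a share 4.03-fold higher (3.44 to 4.71). T or NK lymphocyte-like nuclei numbered 17 and 123, 0.291% and 2.61% of the libraries, a share ratio of 8.96 (5.40 to 14.9). B lymphocyte-like nuclei numbered 22 and 60, a share ratio of 3.38 (2.07 to 5.49). It was 6.77 among nuclei with no Y-linked UMI (5 and 38 of the class). Among those with at most 5% mitochondrial UMIs it was 6.32, resting on 1 running and 33 running infarct nuclei. All 3 immune classes were larger shares of the infarcted pool. Mesothelial-like nuclei stood at 1.82% (1.49 to 2.19) and 4.44% (3.87 to 5.06), a ratio of 2.44 (1.94 to 3.07), with 2.05 in the sedentary pair. Lymphatic endothelial-like nuclei stood at 4.65% (4.12 to 5.22) and 2.65% (2.21 to 3.15), 1.75-fold lower (1.42 to 2.16), beside a ratio of 0.660 (0.508 to 0.857) in the sedentary pair. These are shares of nuclei sorted from the tissue, so a loss of one class raises every other.

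**Figure D1:**
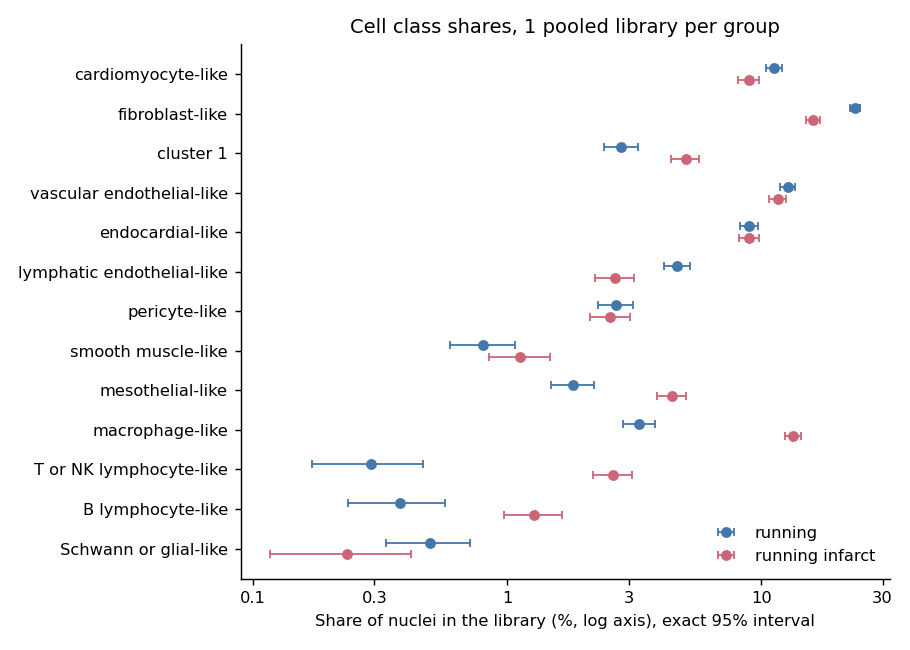
Share of all nuclei of each library (percent, log axis) for each named class and for cluster 1, in the running and the running infarct library, with exact binomial 95% intervals. Macrophage-like nuclei were at 3.31% and 13.3%, and endocardial-like nuclei at 8.97% and 8.96%.

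The share intervals of endocardial-like, pericyte-like, smooth muscle-like and vascular endothelial-like nuclei reached even. Those of cardiomyocyte-like, fibroblast-like and Schwann-like nuclei and of cluster 1 did not. Endocardial-like nuclei made up 8.97% and 8.96% of the libraries, a ratio of 0.999 (0.884 to 1.13). Pericyte-like nuclei (156 and 120) gave a ratio of 0.952 (0.753 to 1.20) and smooth muscle-like nuclei (47 and 53) one of 1.40 (0.944 to 2.06). Vascular endothelial-like nuclei had a share ratio of 0.915, cardiomyocyte-like nuclei 0.795 (0.708 to 0.893) and fibroblast-like nuclei 0.682 (0.629 to 0.738). The fibroblast ratio was 0.193 with predicted doublets kept and 0.481 at Leiden resolution 2. With doublets kept the fibroblast name was left to a cluster of 821 and 127 nuclei. A cluster led by Col12a1 and Col11a1 (1 and 317 nuclei) stayed unnamed there, so 0.193 does not show the effect of doublets alone. A further cluster of 164 and 237 nuclei, called cluster 1 here because its leading genes did not satisfy the naming rule, had a ratio of 1.79 (1.47 to 2.18). Schwann-like nuclei were few, 29 and 11, with a share ratio of 0.470 (0.235 to 0.939). That ratio was 1.15 among nuclei with at most 5% mitochondrial UMIs, where 1 and 6 nuclei of the class were left. Nuclei of unnamed clusters were 26.4% of the running and 21.3% of the running infarct library, and clusters with high doublet scores held 37.3% and 51.5% of these unnamed nuclei. Several of these ratios moved with the choice of nuclei. Among nuclei with at most 5% mitochondrial UMIs the endocardial share ratio was 0.660, the pericyte ratio 0.342 and the cardiomyocyte ratio 0.537. Among nuclei with no Y-linked UMI the cardiomyocyte ratio was 1.04, among those with at least 2 Y-linked UMIs 0.354, and among those with at least 800 genes 0.560. The 5% limit kept 8.66% of the running and 55.9% of the running infarct nuclei, with 23 and 41 pericyte-like nuclei among them.

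Within a class, the UMIs of all its nuclei were summed per library and scaled to the class total without mitochondrial genes (CPM, the usual normalised count). A gene counts as measured with at least 50 UMIs over both libraries, and as higher or lower when the libraries differed at least 1.5-fold. Log2 ratios are running infarct over running throughout. Gene lists are described by their count of higher and lower genes and their median log2 ratio, beside the same over all measured genes of the class. Since classes were named partly from genes on the identity lists, nuclei that had lost such genes would not be in them.

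Endocardial-like nuclei (523 and 422) had higher levels of the ligand genes Nrg1, Edn1 and Bmp6 after infarct and lower levels of the ligand gene Inhba. Nrg1 (ENSMUSG00000062991), the neuregulin ligand of the ErbB receptors on cardiomyocytes, stood at 1763 CPM in the running and 12164 CPM in the running infarct library, 6.90-fold higher (6.66 to 7.16). Its 10 richest nuclei held 24.3% and 15.0% of the class's Nrg1 UMIs. Edn1, which encodes the vasoconstrictor endothelin, was at 51.4 and 303 CPM, 5.90-fold higher (4.76 to 7.39). The BMP ligand Bmp6 was at 1678 and 3936 CPM, 2.35-fold higher (2.25 to 2.45). The sedentary pair gave ratios of 5.80 for Nrg1, 2.61 for Edn1 and 2.18 for Bmp6, all in the same direction. In this class 5.89% of the 8983 measured genes were higher and 14.9% lower, and their median log2 ratio was -0.14. Scaling by median ratios in place of totals would shift each log2 ratio of this class up by 0.14.

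Within this class, Nrg1 led a finer cluster that came mostly from the running infarct library. Where the single nuclei with the highest Nrg1 sat was not examined. When clustered more finely, at Leiden resolution 2, a cluster led by Nrg1, Smoc1, Otogl and Brinp2 held 4 running and 178 running infarct nuclei of the class, while the other large ones, clusters 11 and 22, held 392 and 188 and 125 and 51. The class values of these genes thus compare nuclei that were spread differently over these clusters. In clusters 11 and 22 alone, an alternative chosen after seeing the data and from a clustering that used these genes, the log2 ratio of Nrg1 was 1.06, beside 2.79 in the class. There it was 1.75 for Edn1 (2.56 in the class), 0.27 for Bmp6 (1.23) and 2.15 for Kif26b (3.60), a kinesin family gene, and Brinp2 and Otogl were under 50 UMIs. Nrp1, a coreceptor for VEGF and semaphorins, was at 0.42 there (1.37 in the class), below 1.5-fold.

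Of 19 endocardial identity genes, 18 were measured, 9 were higher and 3 lower, with a median log2 ratio of 0.57. The natriuretic peptide clearance receptor Npr3, a defining endocardial gene, differed little at 1363 and 1431 CPM (1.05-fold, 0.993 to 1.11), and so did Vwf, the clotting factor carrier, at 810.4 and 918 CPM (1.13-fold, 1.05 to 1.22). Both markers were thus at similar levels. Hapln1, a link protein of hyaluronan matrix, was at 172 and 26.9 CPM, 6.39-fold lower (4.67 to 8.93). Inhba, an activin subunit, was at 136 and 50.2 CPM, 2.70-fold lower (2.10 to 3.49). These genes depended on cluster makeup: the class joined cluster 11 (438 and 401 nuclei) and cluster 16 (85 and 21 nuclei), and without cluster 16 the log2 ratio of Hapln1 was -1.15 and that of Inhba -0.08. Further members are given with their values although they fell outside the rule for named genes and were chosen after their values were seen. The sialomucin Emcn was at 1097 and 1711 CPM (1.56-fold, 1.48 to 1.65), the BMP-binding matricellular gene Smoc1 at 447 and 1078 CPM (2.41-fold, 2.22 to 2.62) and the basement membrane gene Hmcn1 at 3226 and 6505 CPM (2.02-fold, 1.95 to 2.08). The valve-forming transcription factor Nfatc1 was lower, at 157 and 90.9 CPM (1.72-fold, 1.41 to 2.11).

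Matrix and mesenchymal genes were also higher in endocardial-like nuclei. Of 26 genes of the list for endothelial-to-mesenchymal transition and matrix, 20 were measured, 10 were higher and 1 lower (median log2 ratio 0.50). Cdh2, the mesenchymal cadherin, was at 39.5 and 133 CPM, 3.37-fold higher (2.59 to 4.43), beside 169 CPM in T or NK lymphocyte-like nuclei of the running infarct library. Among transcription factors of that transition, Snai1 had 3 and 3 UMIs, Twist1 1 and 2, and Snai2 6 and 1, too few to measure a difference. Of 19 collagen and basement membrane genes 15 were measured, 7 were higher and 0 lower (median 0.57). Col3a1, a fibrillar collagen, was at 80.1 and 529 CPM, which has to be read beside 657 CPM in T or NK lymphocyte-like nuclei of the same library, a class not known to make it. The endocardial level lay below it and was not read as expression, and the share of free RNA in these levels was not measured. Over the larger classes other than cardiomyocyte-like, Col3a1 ran from 293 to 2237 CPM after infarct. The lymphocyte-like level is thus no background for the whole library. Here and below, a level above or below it does not decide whether a class expressed the gene. Fn1, fibronectin, was at 192 and 464 CPM (2.42-fold, 2.14 to 2.75), against 302 CPM in the lymphocyte-like nuclei.

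Outside the lists, the rule for named genes, which ranks by the interval bound nearest to even and leaves out genes far higher in another class, chose Brinp2, Kif26b and Otogl on the higher side. Brinp2 had 2 UMIs in the running and 196 UMIs in the running infarct library, 1.03 and 117 CPM (114-fold, 31.2 to 949). Kif26b was at 52.4 and 635 CPM, 12.1-fold higher (9.89 to 15.0), with a ratio of 13.4 in the sedentary pair. Otogl was at 9.24 and 131 CPM, 14.2-fold higher (8.76 to 24.4), with a ratio of 11.5 there. Brinp2 had a ratio of 67.5 in the sedentary pair, so all 3 were higher after infarct there too. On the lower side, Nr4a1, an orphan nuclear receptor induced within minutes of a stimulus, was at 131 and 8.37 CPM, 15.6-fold lower (9.15 to 29.0). The calcitonin receptor gene Calcr was at 115 and 14.4 CPM, 7.98-fold lower (5.23 to 12.7), but 10 nuclei held 70.0% of its UMIs in the running library. Calcr was also a leading gene of cluster 16, which held 85 and 21 nuclei of the class. The interferon-induced GTPase gene Iigp1 was at 409 and 64.6 CPM, 6.34-fold lower (5.18 to 7.82). For Iigp1 the log2 ratio was -3.53 among Y-positive and -1.27 among Y-zero nuclei, and the sedentary pair had a ratio of 0.827.

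Receptors and signalling genes in endocardial-like nuclei went in different directions. Nrp1 was at 901 and 2324 CPM, 2.58-fold higher (2.44 to 2.73), while Kdr, the main VEGF receptor, was at 125 and 52.0 CPM, 2.40-fold lower (1.87 to 3.10). The leukocyte adhesion gene Vcam1 was at 709.8 and 421 CPM, 1.69-fold lower (1.54 to 1.85). Of 10 measured Notch pathway genes, 0 were higher and 2 lower (median -0.24), among them Hey2, a Notch target, at 48.3 and 17.9 CPM (2.69-fold lower, 1.77 to 4.20). Of 18 measured TGF-beta pathway genes, 6 were higher and 2 lower (median 0.18). Among these the latent TGF-beta binding protein gene Ltbp3 was at 55.5 and 124 CPM, 2.23-fold higher (1.76 to 2.84), and its paralogue Ltbp2 at 56.0 and 23.3 CPM, 2.40-fold lower (1.65 to 3.55). Thrombospondin, Thbs1, an activator of latent TGF-beta, was at 7.70 and 38.3 CPM, 4.97-fold higher (2.80 to 9.39).

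**Figure D2:**
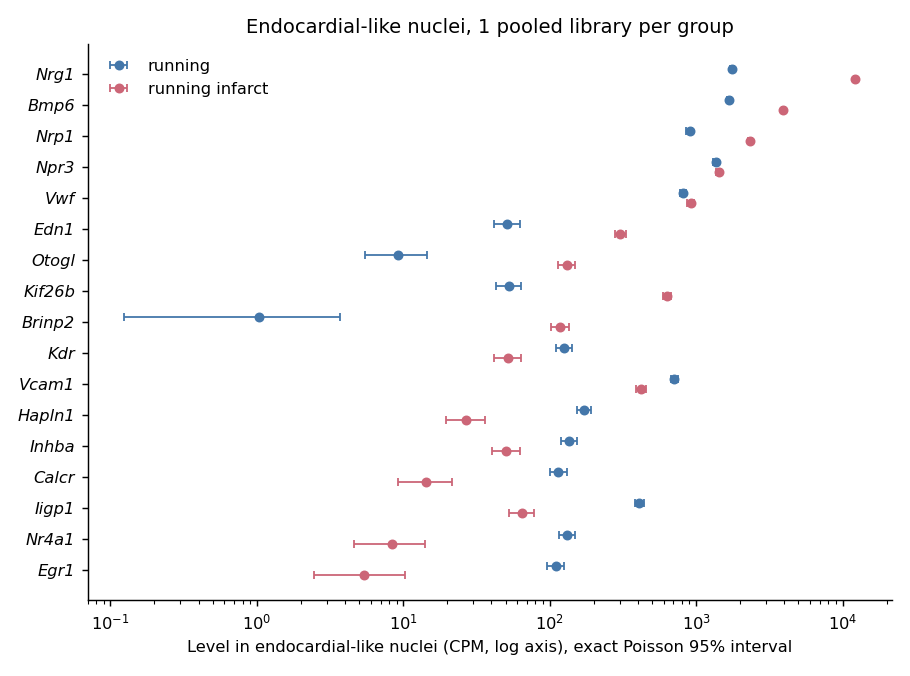
Level (CPM, log axis) of 17 named genes in endocardial-like nuclei of the running and the running infarct library, with exact Poisson 95% intervals. Nrg1 lies at 1763 and 12164 CPM and Npr3 at 1363 and 1431 CPM, while Egr1 and Nr4a1 lie at 109.9 and 131 CPM without and at 5.38 and 8.37 CPM with infarct.

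Lymphatic endothelial-like nuclei (271 and 125) were fewer in the infarcted pool and had most identity genes within 1.5-fold. In this class 7.52% of the 6805 measured genes were higher and 11.8% lower (median log2 ratio -0.03). Of 22 lymphatic identity genes 18 were measured, 3 were higher and 2 lower, with a median of 0.20. Prox1 (ENSMUSG00000010175), the transcription factor that specifies lymphatic fate, was at 950.3 and 1220.0 CPM, 1.28-fold higher (1.17 to 1.41), with a log2 ratio of -0.09 among nuclei with at most 5% mitochondrial UMIs. The lymphatic VEGF receptor Flt4, chosen after its value was seen, was at 796 and 833 CPM (1.05-fold, 0.936 to 1.17). Both genes differed far less than the 1.5-fold limit.

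Genes of lymphatic function went both ways. Ccl21a, the chemokine that draws dendritic cells and T cells into lymphatics, was at 1000.0 and 549 CPM, 1.82-fold lower (1.61 to 2.07), with log2 ratios of -0.29 among Y-positive and -1.36 among Y-zero nuclei. Reln, a secreted glycoprotein of collecting lymphatics, was at 2139 and 1453 CPM, 1.47-fold lower (1.36 to 1.59). The hyaluronan receptor gene Lyve1, outside the rule for named genes and chosen after its value was seen, was at 267 and 183 CPM, 1.46-fold lower (1.17 to 1.85). By contrast the scavenger receptor gene Stab2 was at 133 and 329 CPM, 2.47-fold higher (1.99 to 3.06), with a ratio of 3.19 in the sedentary pair. Fn1 was at 88.8 and 448 CPM, 5.05-fold higher (4.03 to 6.35), beside 302 CPM in T or NK lymphocyte-like nuclei. The netrin receptor gene Unc5b was at 116 and 275 CPM, 2.38-fold higher (1.88 to 2.996), one of 4 higher and 3 lower among the 15 measured genes of angiogenesis and tip cells. The basement membrane collagens Col4a1 (268 and 508 CPM, 1.90-fold, 1.61 to 2.22) and Col4a2 (187 and 425 CPM, 2.27-fold, 1.89 to 2.73) were higher as well, beside 385 and 263 CPM in T or NK lymphocyte-like nuclei of the running infarct library. Vegfc, the ligand of Flt4, was at 118 and 36.1 CPM, 3.26-fold lower (2.04 to 5.49), but 10 nuclei held 68.8% of its UMIs in the running library. Hgf, the hepatocyte growth factor gene, was at 12.3 and 72.3 CPM, 5.90-fold higher (3.23 to 11.3), with 97.5% of its UMIs in 10 nuclei of the infarcted pool.

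Class I antigen presentation genes were lower in lymphatic endothelial-like nuclei: of 7 measured members of the antigen presentation list, 0 were higher and 4 lower (median log2 ratio -0.63). H2-K1, a class I heavy chain, was at 297 and 179 CPM, 1.66-fold lower (1.33 to 2.09). H2-D1, another heavy chain, was at 293 and 197 CPM, 1.48-fold lower (1.20 to 1.85). B2m, their shared light chain, was at 199 and 107 CPM, 1.87-fold lower (1.40 to 2.52), and was chosen after its value was seen. Genes of the heavy chains are near-identical copies whose reads can be split between them. The lymphatic genes that the same rule chose on the lower side were the peptide transporter gene Slc15a2 (79.6 and 12.7 CPM, 6.29-fold, 2.95 to 16.0), L3mbtl4 (63.6 and 10.8 CPM, 5.86-fold, 2.58 to 16.4) and the cytochrome P450 gene Cyp4b1 (116 and 21.7 CPM, 5.33-fold, 2.96 to 10.5).

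Pericyte-like nuclei (156 and 120) had a lower median log2 ratio for their identity genes and higher basement membrane genes. In this class 9.15% of the 5015 measured genes were higher and 12.9% lower (median -0.04), and the UMIs per nucleus differed most among the small classes. All 20 pericyte identity genes were measured, of which 2 were higher and 6 lower (median log2 ratio -0.36). With predicted doublets kept that median was 0.32, so its direction depended on the doublet step. Pdgfrb (ENSMUSG00000024620), the PDGF receptor that holds pericytes to vessels, was at 1110.3 and 802 CPM, 1.39-fold lower (1.21 to 1.59), against a ratio of 1.48 in the sedentary pair and a log2 ratio of 0.31 with doublets kept. The ATP-sensitive potassium channel subunit Kcnj8 was at 284 and 240.2 CPM (1.18-fold lower, 0.917 to 1.53), an interval that reached even. Its partner Abcc9, chosen after its value was seen, was at 2807 and 2008 CPM, 1.40-fold lower (1.28 to 1.52). The nucleotide sugar receptor gene P2ry14 was at 193 and 81.0 CPM, 2.39-fold lower (1.60 to 3.66). Rgs5, a regulator of G protein signalling and a common pericyte marker, also chosen after its value was seen, went the other way at 642 and 1017 CPM (1.59-fold, 1.38 to 1.82).

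Notch3, the receptor through which endothelium maintains mural cells, was at 819.9 and 1098 CPM in pericyte-like nuclei (1.34-fold, 1.18 to 1.52), and of 8 measured Notch genes none passed 1.5-fold in either direction (median -0.14). Of 15 measured collagen genes 5 were higher and 0 lower (median 0.24). Col4a1 was at 294 and 578 CPM (1.96-fold, 1.62 to 2.38) and Col4a2 at 208 and 491 CPM (2.36-fold, 1.89 to 2.95). After infarct both were above the level in T or NK lymphocyte-like nuclei, 385 and 263 CPM. The fibrillar Col3a1, at 222 and 502 CPM, was below its level there of 657 CPM. Sbno2 was at 17.6 and 99.9 CPM, 5.69-fold higher (2.95 to 11.7). Of 8 measured genes of the glucocorticoid response 0 were higher and 5 lower, with a median of -0.65, which was 0.0075 when clustered at a finer resolution. On the lower side that rule chose the transporters Slc15a2 (104 and 10.8 CPM, 9.63-fold, 3.61 to 36.3) and Abca6 (427 and 78.3 CPM, 5.45-fold, 3.72 to 8.28) and the membrane collagen gene Col25a1 (138 and 18.9 CPM, 7.29-fold, 3.41 to 18.6). The co-receptor gene Tgfbr3 was at 449.8 and 227 CPM, 1.98-fold lower (1.56 to 2.55), and the matricellular gene Ccn2, a TGF-beta and YAP target, at 31.1 and 89.1 CPM, 2.87-fold higher (1.63 to 5.11), below its 151 CPM in T or NK lymphocyte-like nuclei. Ryr2, the cardiomyocyte calcium release channel, was at 186 and 359 CPM with 76.7% of its UMIs in 10 nuclei after infarct, and its log2 ratio was -0.36 among Y-zero nuclei. The 12 cardiomyocyte transcripts used to gauge carry-over had 1 gene higher and 1 lower, and took 0.42% and 0.43% of the class's UMIs.

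Smooth muscle-like nuclei (47 and 53) were too few on the running side for a count of genes over the class, so only lists and single genes are described, against 16.6% of 1778 measured genes higher and 15% lower. Of 27 contractile genes 21 were measured, of which 1 was higher and 8 lower (median log2 ratio -0.32, beside 0.04 over all measured genes). Myh11 (ENSMUSG00000018830), the smooth muscle myosin heavy chain, had 807 and 438 UMIs, or 4129 and 2297 CPM, 1.80-fold lower (1.60 to 2.02). Acta2, smooth muscle actin, had 486 and 161 UMIs, or 2487 and 844 CPM, 2.95-fold lower (2.46 to 3.54). The actin-binding gene Tagln was at 1484 and 556 CPM, 2.67-fold lower (2.13 to 3.37). The sedentary pair had ratios of 0.570 for Myh11 and 0.527 for Acta2. Mylk, myosin light chain kinase, stood at 1218 and 1216 CPM, so the contractile genes were not uniformly lower. Among Y-positive nuclei the list's median was 0.52 and the log2 ratio of Myh11 was 0.56. These were 16 running and only 4 running infarct nuclei, 7.55% of the latter in the class.

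Matrix and synthetic genes were higher in smooth muscle-like nuclei, at small counts. Of 22 genes of the synthetic list 10 were measured, 5 were higher and 0 lower (median 0.73), a median that was 0.036 at a minimum of 100 UMIs and -0.034 with no minimum. Eln, elastin, had 65 and 258 UMIs, 4.07-fold higher (3.09 to 5.42), but 10 nuclei held 83.1% and 85.3% of them. Col8a1, a short-chain collagen of injured arteries, had 37 and 185 UMIs, or 189 and 970.0 CPM, 5.12-fold higher (3.58 to 7.50), below its 1172 CPM in T or NK lymphocyte-like nuclei. Fn1 had 14 and 110 UMIs, or 71.6 and 577 CPM, 8.05-fold higher (4.60 to 15.2), and the T or NK lymphocyte-like level was 302 CPM. Rgs5 had 39 and 111 UMIs, 2.92-fold higher (2.01 to 4.32). The ligand gene Tgfb3 had 118 and 34 UMIs, 3.39-fold lower (2.30 to 5.12). Cardiomyocyte transcripts were lower in this class in 8 of 11 measured genes and took 0.78% and 0.43% of its UMIs.

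Mesothelial-like nuclei (106 and 209) were a larger share of the infarcted pool and had higher collagen genes, with lower levels of some surface genes. In this class 11.1% of the 6004 measured genes were higher and 9.84% lower (median log2 ratio 0.00). Of 24 mesothelial identity genes 20 were measured, 0 were higher and 4 lower (median -0.19). Wt1 (ENSMUSG00000016458), the epicardial transcription factor, was at 1016 and 832 CPM, 1.22-fold lower (1.10 to 1.36), and the surface glycoprotein mesothelin, Msln, at 451 and 381 CPM, 1.18-fold lower (1.00 to 1.39). Upk3b, a uroplakin of mesothelium, was at 548 and 266 CPM, 2.06-fold lower (1.74 to 2.43). The potassium channel gene Kcnd2 was at 3815 and 2109 CPM, 1.81-fold lower (1.70 to 1.92). The mucin gene Muc16 and the glycoprotein gene Gpm6a, chosen after their values were seen, were within 1.5-fold, at 2516 and 2014 CPM and at 2307 and 2586 CPM.

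Of 26 genes on the mesothelial activation list 14 were measured, with 6 higher and 5 lower (median log2 ratio 0.42). Postn, the matricellular protein periostin, was at 10.5 and 102 CPM, 9.71-fold higher (4.31 to 27.1), below the 362 CPM of T or NK lymphocyte-like nuclei. Cdh2, at 19.2 and 79.3 CPM (4.13-fold, 2.19 to 8.61), and Fn1, at 66.4 and 187 CPM, were also below their lymphocyte levels of 169 and 302 CPM. Of 15 measured collagen genes 10 were higher and 0 lower (median 0.81). Col3a1 was at 1304 and 2237 CPM, 1.71-fold higher (1.58 to 1.87), and stood above the 657 CPM of the lymphocyte-like nuclei. Col5a2, a fibril-regulating collagen, was at 209.5 and 502 CPM, 2.40-fold higher (1.96 to 2.95), above its 382 CPM there. Col8a1 was at 54.1 and 179 CPM, 3.31-fold higher (2.25 to 5.01), but below its 1172 CPM in the lymphocyte-like nuclei, and it was higher in 8 of 12 classes. The complement protease gene C1s1 was at 112 and 235 CPM, 2.10-fold higher (1.59 to 2.82), and the alarmin gene Il33 at 264 and 133 CPM, 1.98-fold lower (1.56 to 2.52). Igfbp5, an IGF binding protein, was at 2403 and 636 CPM, 3.78-fold lower (3.44 to 4.16), with a ratio of 0.290 in the sedentary pair. Bmpr1b, a BMP receptor gene, was at 447 and 103 CPM, 4.35-fold lower (3.44 to 5.53). The calcium sensor gene Vsnl1 was at 80.3 and 8.14 CPM, 9.87-fold lower (4.61 to 24.2), and the adenylate kinase gene Ak5 at 19.2 and 141 CPM, 7.36-fold higher (3.99 to 15.1).

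**Figure D3:**
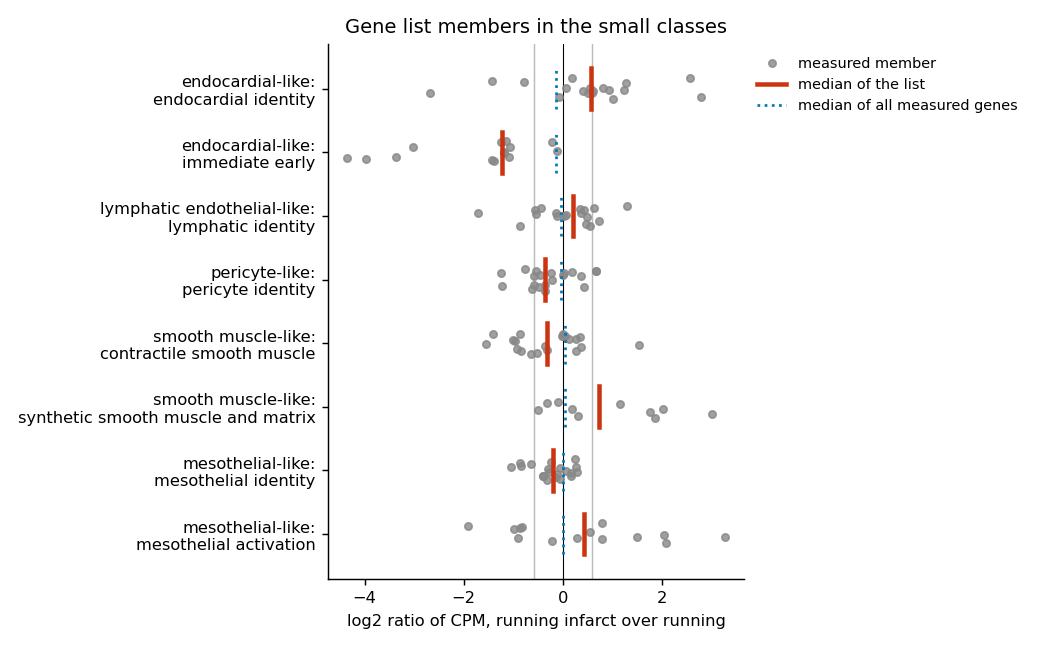
Log2 ratio of CPM (running infarct over running) of each measured gene of 8 lists in the small classes, 1 point per gene, with grey lines at 1.5-fold, the median of the list in red and the median of all measured genes of the class dotted in blue. The immediate early list of endocardial-like nuclei has a median of -1.22 and the contractile list of smooth muscle-like nuclei one of -0.32.

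Lymphocyte-like nuclei were seen mainly in the infarcted pool, and their 17 and 22 nuclei in the running library gave few UMIs to compare. In T or NK lymphocyte-like nuclei, Cd3e, a chain of the T cell receptor complex, had 1 and 25 UMIs. Themis, a signalling adapter of T cells, had 26 and 259 UMIs, Cd247, the zeta chain of that complex, 18 and 211, and the adapter gene Skap1 131 and 970. The cytokine receptor gene Il7r had 11 and 148 UMIs. All of these were detected in both libraries. Cd4 had 0 and 10 UMIs and Cd8a 3 and 12, too few to split the class, and Ncr1, a receptor of NK cells, had 8 and 27. Of 32 T cell genes 13 were measured, with 6 higher and 1 lower (median log2 ratio 0.36), in a class where 20.6% of 2724 genes were higher and 12.2% lower. The class held 75000 and 436685 UMIs, so genes reached the minimum mainly through the running infarct library. That can favour genes higher there. Summed over all 32 genes, the list was at 10480 and 9721 CPM, a ratio of 0.928 (0.859 to 1.002). Rora, the lower gene, made up 4240 and 1933 CPM of these sums. The count therefore does not show that T cell genes were higher as a set. In B lymphocyte-like nuclei, 9 of 16 B cell genes were measured and 0 passed 1.5-fold in either direction (median -0.07), beside 16.9% of 1167 genes higher and 9.94% lower. Pax5, the transcription factor of B cell identity, had 57 and 148 UMIs, or 767 and 869.8 CPM (1.13-fold, 0.830 to 1.57). The scaffold gene Bank1 had 215 and 567 UMIs and the immunoglobulin gene Ighm 63 and 137 UMIs.

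Cardiomyocyte-like nuclei (654 and 420) had higher stress genes and lower fatty acid genes after infarct. In this class 7.65% of the 9991 measured genes were higher and 8.84% lower (median log2 ratio -0.02). Of 15 stress and fetal genes 13 were measured, 10 were higher and 0 lower (median 1.56, and 0.82 in cluster 13 alone, which held 568 and 143 nuclei). Nppa, atrial natriuretic peptide, was at 16.2 and 245 CPM, 15.1-fold higher (11.99 to 19.2). Nppb, its ventricular relative, was at 38.0 and 253 CPM, 6.66-fold higher (5.65 to 7.89), and the stretch-responsive nuclear protein gene Ankrd1 at 489 and 1860.1 CPM, 3.81-fold higher (3.62 to 4.00). Ankrd1 had a ratio of 9.88 in the sedentary pair. Of 24 measured fatty acid and mitochondrial energy genes 0 were higher and 6 lower (median -0.37). Pdk4, the kinase that turns off glucose oxidation, was at 411 and 35.3 CPM, 11.6-fold lower (9.18 to 15.0), and the mitochondrial carrier gene Ucp3 at 75.5 and 15.1 CPM, 5.00-fold lower (3.45 to 7.51). Ppargc1a, a coactivator of mitochondrial genes, was at 1687 and 911 CPM, 1.85-fold lower. Of 17 measured ion channel genes 0 were higher and 1 lower (median -0.01), with the calcium channel gene Cacna1c at 10076 and 11786 CPM. A low-depth cluster, cluster 18, held 80 and 227 of these nuclei, and without it the share ratio of the class was 0.416.

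Fibroblast-like nuclei (1366 and 752) had higher myofibroblast genes and lower resting fibroblast genes after infarct. In this class 9.76% of the 11386 measured genes were higher and 13.1% lower (median log2 ratio -0.07). All 18 myofibroblast genes were measured, 16 were higher and 1 lower (median 3.50). Postn was at 38.1 and 928 CPM, 24.4-fold higher (21.1 to 28.4), Col11a1, a minor fibrillar collagen, at 2.94 and 222 CPM, 75.4-fold higher (45.3 to 136), and Col1a1 at 107 and 412 CPM, 3.85-fold higher (3.47 to 4.28). All 17 resting fibroblast genes were measured, 1 was higher and 14 lower (median -1.43), among them the leptin receptor gene Lepr at 211 and 29.9 CPM, 7.07-fold lower (5.61 to 9.01), and the ferritin receptor gene Scara5 at 502 and 139 CPM, 3.63-fold lower. Different clusters held the class in the libraries: clusters 0 and 4 had 774 and 557 nuclei in the running and 118 and 56 in the running infarct library, and cluster 2 had 35 and 578. In clusters 0 and 4 alone the medians were 1.46 for myofibroblast and -0.17 for resting genes, and with predicted doublets kept they were 1.02 and -0.09. With doublets kept, however, the class was a cluster of 821 and 127 nuclei. Among those left unnamed there, with fibroblast as closest type, were a cluster led by Col12a1 and Col11a1 (1 and 317 nuclei) and another of 671 and 276 nuclei. The medians with doublets kept therefore do not show the effect of doublets alone. In cluster 1, where 5.94% of the 6667 measured genes were higher and 8.01% lower, 6 of 13 measured myofibroblast genes were higher and 1 lower (median 0.54). Fbn1, fibrillin, was at 674 and 1648 CPM there, 2.44-fold higher (2.21 to 2.71), against a ratio of 1.04 in the sedentary pair.

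Vascular endothelial-like nuclei (739 and 546) had higher basement membrane and angiogenic genes and lower class I antigen presentation genes. In this class 6.43% of the 8854 measured genes were higher and 12.3% lower (median log2 ratio -0.07). Of 15 measured collagen genes 11 were higher and 0 lower (median 1.24). Col4a1 was at 307 and 970.2 CPM, 3.17-fold higher (2.88 to 3.48), and Col4a2 at 186 and 749 CPM, 4.03-fold higher (3.58 to 4.54), both above the levels in T or NK lymphocyte-like nuclei. Of 16 measured genes of angiogenesis and tip cells 8 were higher and 2 lower (median 0.47). Of 12 measured antigen presentation genes 0 were higher and 12 lower (median -0.96, and -0.98 in cluster 7 alone). B2m was at 429.6 and 165 CPM, 2.61-fold lower (2.26 to 3.03), and Nlrc5, the transactivator of class I genes, at 128 and 62.4 CPM, 2.05-fold lower. Arterial genes were lower in 8 of 14 measured members and higher in 1 (median -0.71), but that rested on cluster 14, which held 209 and 44 nuclei: in cluster 7 alone, with 530 and 502 nuclei, the median was 0.18. The gap junction gene Gja5 of arterial endothelium was at 138 and 34.0 CPM, 4.04-fold lower (2.97 to 5.61).

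Macrophage-like nuclei (193 and 628) had lower genes of resident macrophages. In this class 9.53% of the 7219 measured genes were higher and 9.88% lower (median log2 ratio -0.01). Of 10 resident macrophage genes, all measured, 0 were higher and 6 lower (median -0.89). Lyve1 was at 224 and 43.7 CPM, 5.12-fold lower (3.78 to 6.98), the phosphatidylserine receptor gene Timd4 at 220.2 and 48.2 CPM, 4.57-fold lower (3.40 to 6.17), and the haemoglobin scavenger gene Cd163 at 836 and 280.2 CPM, 2.98-fold lower (2.61 to 3.41). Of 10 genes of monocyte-derived macrophages 4 were measured, 3 higher and 0 lower (median 2.39, but 0.23 with no minimum of UMIs). Ccr2 (ENSMUSG00000049103), the receptor that recruits monocytes, was at 68.0 and 222 CPM, 3.26-fold higher (2.33 to 4.69). Of 12 measured genes of lipid-associated macrophages 4 were higher and 1 lower (median 0.24), with the galectin gene Lgals3 at 66.2 and 173 CPM, 2.61-fold higher (1.85 to 3.79), and the fatty acid receptor gene Cd36 at 346 and 149 CPM, 2.32-fold lower. Of 9 measured cell cycle genes 0 were higher and 4 lower (median -0.56). The proliferation gene Top2a, at 107 and 43.1 CPM, had 98.3% of its running UMIs in 10 nuclei. Top2a was also a leading gene of unnamed cluster 8 (210 and 357 nuclei), outside this class, whose closest type was macrophage. At Leiden resolution 2 a cluster led by Top2a and named macrophage held 20 and 46 nuclei.

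Some genes were higher in almost every class, and a low level in such a library cannot be told apart from RNA that was free in the suspension. Col3a1 was higher after infarct in 12 of 12 classes with a median log2 ratio of 2.08, and in classes not known to make it stood at 657 CPM (T or NK lymphocyte-like) and 793 CPM (B lymphocyte-like). Nppa, made by cardiomyocytes, was higher in 9 of 9 classes with enough UMIs. Outside cardiomyocyte-like nuclei the running infarct library had 68.1 to 123 CPM of Nppa, except 31.5 CPM in smooth muscle-like nuclei. Nrg1 was higher in 10 of 10 classes, but its endocardial level of 12164 CPM stood far above the other classes. In pericyte-like nuclei Nrg1 was at 127 and 1047 CPM with 95.1% of the running infarct UMIs in 10 nuclei, and in smooth muscle-like nuclei it had 4 and 105 UMIs, of which 100% lay in 10 nuclei. The pericyte and smooth muscle values were chosen after they were seen.

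**Figure D4:**
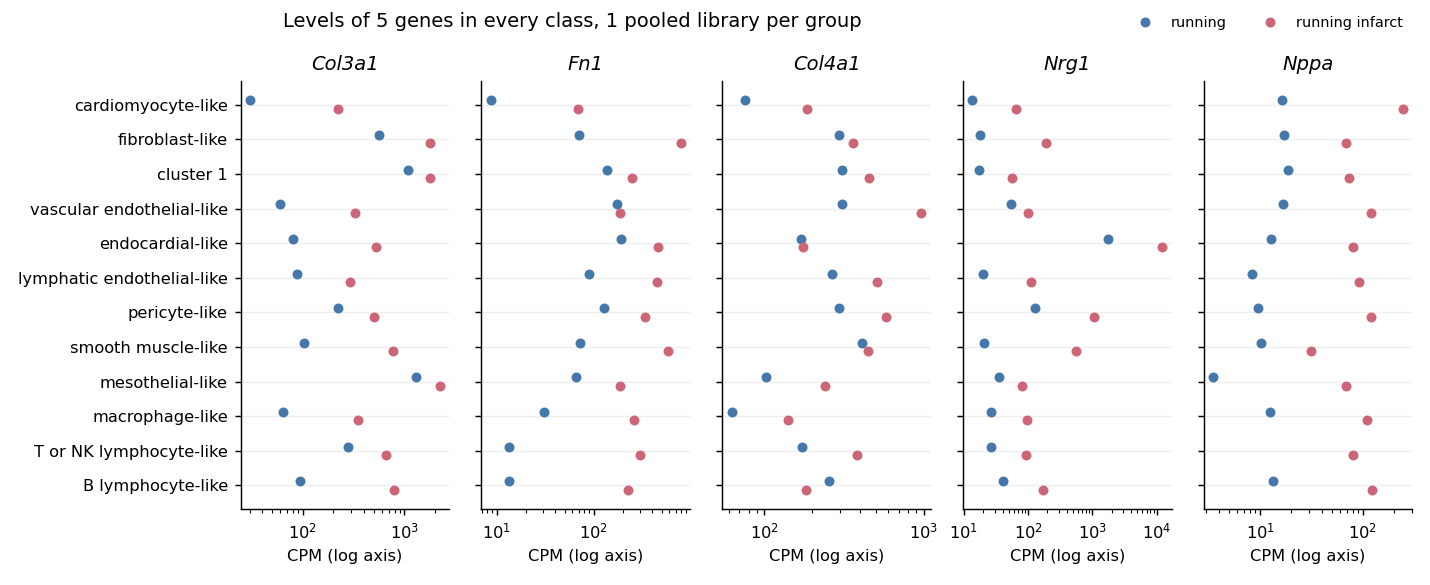
Level (CPM, log axis) of Col3a1, Fn1, Col4a1, Nrg1 and Nppa in each class, 1 point for the running and 1 for the running infarct library, a level of 0 not being drawn. Nrg1 reached 12164 CPM in endocardial-like nuclei after infarct, and Col3a1 stood at 657 CPM in T or NK lymphocyte-like nuclei.

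Clock genes differed in many classes at once. The circadian clock is a feedback loop in which ARNTL (BMAL1) and CLOCK, or its relative NPAS2, bind E-boxes and drive the Per, Cry, Nr1d, Dbp, Tef and Hlf genes, whose products act back on the loop. The labels used here give no time of day of collection. Arntl (ENSMUSG00000055116) was higher in 8 of 9 classes where it was measured, lower in 0, with a median log2 ratio of 1.39 over those classes. In fibroblast-like nuclei it was at 9.23 and 108 CPM, 11.7-fold higher (8.60 to 16.3), and in lymphatic endothelial-like nuclei at 18.4 and 63.3 CPM, 3.44-fold higher (1.99 to 6.05). Per1 was lower in 9 of 9 classes (median -1.08), Dbp lower in 7 of 9 and higher in 1 (median -1.19), Hlf lower in 6 of 8 (median -1.08), Tef lower in 7 of 10 (median -0.80) and Nr1d1 lower in 4 of 6 (median -0.94). Arntl and these 5 genes were thus on opposite sides of even. Other genes of the loop differed less: Clock was higher in 2 of 11 classes and lower in 0 (median 0.35), Npas2 higher in 2 of 3, Cry1 lower in 3 of 6 and Cry2 lower in 0 of 9 (median -0.35). In the sedentary pair the medians over classes were -0.28 for Arntl, 1.89 for Dbp and 1.83 for Nr1d1. Fibroblast-like nuclei show both pairs: Dbp was at 114 and 45.5 CPM in the running and 59.3 and 101 CPM in the sedentary pair, and Arntl at 44.4 and 36.4 CPM in the sedentary pair. The infarct difference in these genes was therefore not in one direction across the pairs, and that difference was not tested.

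Promoters of clock genes were searched for the E-box letters CACGTG, which the clock factors are known to read, and 4 are printed: those of the lower genes Per1 and Tef, which hold it, of Dbp, which was lower and does not, and of Arntl, which was higher and does not. Of 17 clock genes, 14 had a promoter window in the RefSeq table of build GRCm38.p6, 19 windows of 300 bases in all (250 before to 50 after the start of the gene), and 5 of the 14 genes held CACGTG in at least 1 window. This motif reads the same on both strands, no other was searched, and 7.15% of all 32851 windows hold it. Among the lower genes named above, Dbp, Hlf and Nr1d1 have no match and Per1 has it in 1 of 2 windows, so the lower genes did not all hold the letters. The other holders were Ciart (lower in 2 of 2 classes), Cry1 and Bhlhe41 (higher in 1 and lower in 1 of 4). No window of Arntl, Clock or Npas2 had a match. A window of 300 bases does not show whether a gene has the motif elsewhere. The windows lie at chr11:69098699-69098998 (Per1, plus strand), chr7:45704997-45705296 (Dbp, plus strand), chr15:81811164-81811463 (Tef, plus strand) and chr7:113207215-113207514 (Arntl, plus strand), with the motif in capitals. A match is a description of letters and not of binding.
Per1: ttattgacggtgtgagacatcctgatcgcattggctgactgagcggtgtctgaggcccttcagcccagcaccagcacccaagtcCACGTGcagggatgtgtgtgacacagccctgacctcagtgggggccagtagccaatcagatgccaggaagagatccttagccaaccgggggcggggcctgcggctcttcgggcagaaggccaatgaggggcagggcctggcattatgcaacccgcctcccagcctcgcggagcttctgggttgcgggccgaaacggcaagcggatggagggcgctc
Dbp: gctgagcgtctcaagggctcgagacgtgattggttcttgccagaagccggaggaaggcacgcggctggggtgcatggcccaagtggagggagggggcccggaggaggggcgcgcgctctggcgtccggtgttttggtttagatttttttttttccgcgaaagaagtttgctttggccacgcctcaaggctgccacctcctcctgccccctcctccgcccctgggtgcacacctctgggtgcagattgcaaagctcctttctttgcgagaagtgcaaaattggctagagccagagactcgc
Tef: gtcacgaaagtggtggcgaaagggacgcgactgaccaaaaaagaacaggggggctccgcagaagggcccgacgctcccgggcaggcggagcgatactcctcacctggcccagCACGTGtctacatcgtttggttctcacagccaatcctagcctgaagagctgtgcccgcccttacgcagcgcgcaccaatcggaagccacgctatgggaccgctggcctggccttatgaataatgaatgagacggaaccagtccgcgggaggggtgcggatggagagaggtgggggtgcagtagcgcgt
Arntl: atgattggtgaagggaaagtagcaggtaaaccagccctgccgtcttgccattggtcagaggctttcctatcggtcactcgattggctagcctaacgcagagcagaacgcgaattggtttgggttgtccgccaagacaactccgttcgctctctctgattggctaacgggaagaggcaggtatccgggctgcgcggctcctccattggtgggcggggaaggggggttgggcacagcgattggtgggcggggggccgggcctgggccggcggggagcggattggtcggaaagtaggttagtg

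By class, the clock list of 17 genes had a median log2 ratio of -0.77 in fibroblast-like nuclei (2 of 16 measured genes higher, 10 lower), -0.76 in vascular endothelial-like nuclei (1 of 13 higher, 8 lower), -0.76 in lymphatic endothelial-like nuclei (1 of 13 higher, 8 lower) and -0.75 in pericyte-like nuclei (0 of 9 higher, 6 lower). It was closer to the class median in endocardial-like nuclei at -0.16 (1 of 14 higher, 4 lower) and in mesothelial-like nuclei at -0.29 (1 of 11 higher, 1 lower). Immediate early genes, which respond within minutes to stimuli and to tissue handling, had a negative median in every class where they were measured, though its size differed. In endocardial-like nuclei 0 of 14 measured were higher and 12 lower (median -1.22), with Egr1, a zinc finger factor, at 109.9 and 5.38 CPM, 20.4-fold lower (10.6 to 45.3), and Fos, a subunit of AP-1, at 30.8 and 2.99 CPM, 10.3-fold lower (4.18 to 32.9). Of 16 measured in vascular endothelial-like nuclei 0 were higher and 14 lower (median -0.85), and in cardiomyocyte-like nuclei 1 of 14 was higher and 7 lower (median -0.62). Fibroblast-like nuclei had 1 of 17 higher and 12 lower (median -0.75) and mesothelial-like nuclei 0 of 6 higher and 4 lower (median -0.88). Cluster 1 had 1 of 14 higher and 11 lower (median -0.93, but 0.029 among nuclei with at most 5% mitochondrial UMIs). Fewer passed 1.5-fold in lymphatic endothelial-like nuclei, with 2 of 9 lower (median -0.29), in pericyte-like nuclei, with 1 of 5 lower, and in macrophage-like nuclei, with 4 of 10 lower (median -0.40). The cardiomyocyte median was -2.09 among Y-positive and 0.021 among Y-zero nuclei. The glucocorticoid-responsive transcription factor gene Zbtb16 was lower in 7 of 11 classes (median -0.70), with a median of 0.44 in the sedentary pair. The glucocorticoid response list itself had 0 of 10 measured genes higher and 6 lower in endocardial-like nuclei (median -0.67). Time of day, handling and surgery cannot be told apart here.

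**Figure D5:**
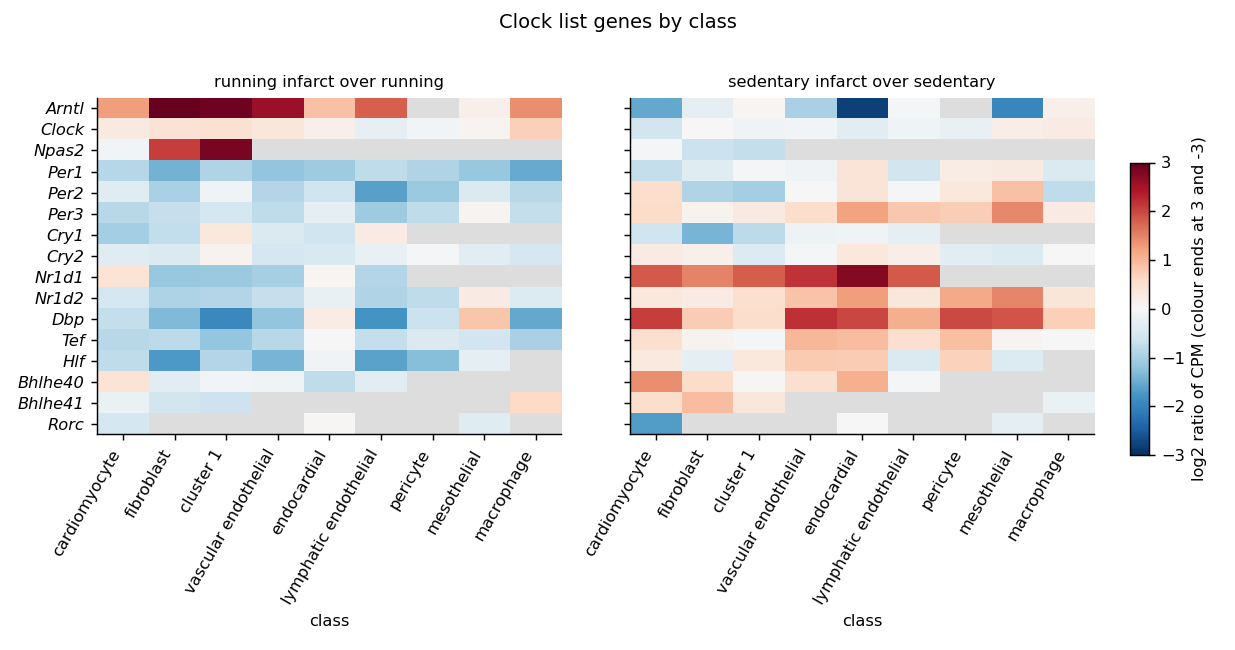
Log2 ratio of CPM, infarct over no infarct, of clock genes (rows) in each class (columns) for the running pair and the sedentary pair, with colours ending at 3 in either direction and grey where the running pair had fewer than 50 UMIs. Per1 is on the lower side in each of the 9 classes of the running pair, and Dbp, at 0.437 in vascular endothelial-like nuclei there, has a ratio of 4.54 in the sedentary pair.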

How the data were processed

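The authors deposited raw UMI counts per gene and barcode for each library, made with Cell Ranger 7.1 on GRCm39 per the submitters' processing notes; aligner settings beyond that are not given in the sources used here. The 25906 gene identifiers and symbols were taken as deposited, and 25461 were found in GENCODE vM21. A barcode was kept with 300 or more genes and no more than 20% of UMIs from 37 mitochondrial genes. The highest Scrublet doublet scores were removed at 0.8% per 1000 barcodes (301 and 192 barcodes), because the automatic threshold called 0 in the running and 1630 in the running infarct library. All 4 libraries were clustered together with scanpy 1.11.5 and igraph 0.11.9 (3000 variable genes, 40 components, 15 neighbours, Leiden resolution 1). Clusters were named from 208 markers of 17 cell types where the mean log2 excess was at least 1 and at least 3 markers were detected. Clusters with markers of several classes and a median doublet score of at least 0.1, and low-depth clusters, stayed unnamed. UMIs were summed per class and library. Intervals are exact binomial for ratios and shares of nuclei, exact Poisson for levels and log-normal for ratios of shares, computed with scipy 1.17.1, numpy 2.4.6 and pandas 2.3.3, and figures with matplotlib 3.10.9. With 1 library a side no test was run. A gene with 0 UMIs on one side was set to 3 counts. Named genes were fixed markers of each class, up to 4 members of each list whose interval lay beyond 1.5-fold or else the 2 with most UMIs, and in classes of at least 50 nuclei per library the 3 higher and 3 lower genes whose interval was farthest from even, with 1 direction in Y-positive and Y-zero nuclei, no level over 5-fold higher in another class, and no numbered gene models. The comparison, its members and the 35 lists (557 genes) were chosen with earlier results of these data known. Scripts were tested on simulated data. Promoter sequences are from RefSeq GRCm38.p6, a build other than that of the counts, and no coordinates were carried over. Alternatives were other filters, scaling, clustering, doublet and Y-linked subsets.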

Additional observations from a re-analysis of the deposited data

Results flagged for a closer look

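For 18 of the named genes and classes the ratio of infarct over no infarct lay on opposite sides of even in the running and the sedentary pair, with both 95% counting intervals clear of even. Each library pools several mice and has no replicate, so the difference between the pairs was not tested. Most of these values belong to the clock or to the glucocorticoid response. Those lists were read in every class, while most other lists were read in a few, so they had more values that could be flagged. Their share among all named values was not computed, and the 18 are a count without that total. In cardiomyocyte-like nuclei, Nr4a1 had a ratio of 0.101 in the running and 1.52 in the sedentary pair, Arntl 2.39 and 0.344, and Tef 0.558 and 1.40. Npas2 had ratios of 4.19 and 0.640 in fibroblast-like nuclei and of 7.16 and 0.605 in cluster 1. Cluster 1 also had Dbp at 0.260 and 1.45 and Zbtb16 at 0.799 and 1.19. Vascular endothelial-like nuclei had Arntl at 5.96 and 0.506, Hlf at 0.379 and 1.73, Dbp at 0.437 and 4.54, and Zbtb16 at 0.565 and 1.84. Zbtb16 was at 0.495 and 1.73 in lymphatic endothelial-like nuclei and at 0.470 and 1.65 in pericyte-like nuclei, where Hlf was at 0.411 and 1.61. Nr1d2, a nuclear receptor of the clock, was at 0.421 and 1.94 in smooth muscle-like nuclei. Outside those lists, pericyte-like nuclei had Pdgfrb at 0.722 and 1.48 and Ryr2 at 1.93 and 0.611, and mesothelial-like nuclei had Msln at 0.847 and 1.26.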

How the results depend on the processing

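With 1 pooled library a side, no spread between mice is known, and for classes under 50 nuclei in the running library no count of genes is given and their levels rest on few nuclei. No paired analysis was possible because each group has 1 library. Over all alternatives, 2015 gene values stayed within their counting interval, 518 moved out of it and 9 that were at least 1.5-fold with an interval clear of even changed sign. Of list medians, 1041 stayed near their value, 162 moved and 6 of at least 1.5-fold changed sign, and of shares 59 stayed, 26 moved and 2 with an interval clear of even crossed it. With smaller values included, the sign changed in 80 of 2542 gene values, 85 of 1209 list medians and 12 of 87 shares. The shares of lymphatic endothelial-like, mesothelial-like, macrophage-like and T or NK lymphocyte-like nuclei stayed within their intervals under every alternative run. For T or NK lymphocyte-like nuclei this rested on 1 running nucleus at the 5% mitochondrial limit and on 5 among Y-zero nuclei. The counts of genes at least 1.5-fold higher and lower were 764 and 883 (cardiomyocyte), 1111 and 1487 (fibroblast), 569 and 1088 (vascular endothelial), 529 and 1338 (endocardial), 512 and 802 (lymphatic), 459 and 645 (pericyte), 668 and 591 (mesothelial), 688 and 713 (macrophage) and 396 and 534 (cluster 1). Where values changed, the cause was not tested beyond the smaller number of nuclei or genes an alternative leaves. At a minimum of 100 UMIs the counts were 453 and 546 (cardiomyocyte), 184 and 208 (cluster 1), 356 and 601 (vascular endothelial), 349 and 775 (endocardial), 225 and 358 (lymphatic), 228 and 251 (pericyte), 344 and 283 (mesothelial) and 385 and 321 (macrophage). With no minimum they were 2850.0 and 2061, 1838 and 3413, 2050.0 and 2851, 1931 and 3488, 2608 and 2592, 2641 and 3078, 2483 and 3159, and 2032 and 3132 in the same order, and 2941 and 2937 in fibroblast-like nuclei, and the synthetic list of smooth muscle-like nuclei was at -0.034. Leiden resolution 2 gave a fibroblast share ratio of 0.481, pericyte counts of 199 and 219, and a pericyte glucocorticoid list median of 0.0075. Among Y-positive nuclei the share ratios were 0.354 (cardiomyocyte), 0.557 (fibroblast), 0.727 (vascular endothelial), 0.691 (pericyte) and 0.535 (smooth muscle), the counts of lower genes 1477 (cardiomyocyte) and 288 (cluster 1), the counts of higher and lower genes 385 and 305 (mesothelial) and 407 and 338 (macrophage), and Myh11 in smooth muscle-like nuclei was at a log2 ratio of 0.56. Among Y-zero nuclei the share ratios were 1.04 (cardiomyocyte), 0.751 (fibroblast), 1.29 (pericyte) and 6.77 (B lymphocyte), the counts of lower genes 442 (cardiomyocyte), 348 (cluster 1), 723 (vascular endothelial) and 872 (endocardial), the counts of both 316 and 386 (lymphatic) and 190.0 and 160.0 (pericyte), the cardiomyocyte immediate early list was at 0.021, and Ryr2 in pericyte-like nuclei at -0.36. At least 800 genes per nucleus gave share ratios of 0.560 (cardiomyocyte), 0.547 (fibroblast) and 0.597 (pericyte). At most 5% mitochondrial UMIs, which left few running nuclei, gave share ratios of 0.537 (cardiomyocyte), 0.904 (fibroblast), 0.421 (vascular endothelial), 0.660 (endocardial), 0.342 (pericyte), 0.428 (smooth muscle), 6.32 (B lymphocyte) and 1.15 (Schwann). There the lower genes numbered 511 (cardiomyocyte), 690.0 (vascular endothelial), 828 (endocardial), 302 (lymphatic) and 231 (pericyte) and the higher ones 723 (cluster 1) and 1217 (macrophage), Meox1 was at -0.10, Smad6 at -0.17 and the immediate early list at 0.029 in cluster 1, Vsig4 at 0.070 in macrophage-like nuclei, and Rora at 1.30 and Ebf1 at 2.73 in T or NK lymphocyte-like nuclei. These Rora and Ebf1 values rested on 1 running nucleus of that class. With doublets kept, the share ratios of fibroblast-like and vascular endothelial-like nuclei were 0.193 and 1.11, fibroblast-like nuclei had 583 higher genes and a chemokine list median of 0.046, and pericyte-like nuclei 1029 lower genes. Fibroblast-like nuclei were then a cluster of 821 and 127 nuclei, and the cluster led by Col12a1 and Col11a1 was unnamed. Weighing every nucleus the same gave 1629 and 1458 cardiomyocyte genes and Zbtb16 at 0.036 in T or NK lymphocyte-like nuclei. Median-of-ratios scaling gave 882 lower endocardial genes, and a denominator without cardiomyocyte-like and unnamed nuclei a fibroblast share ratio of 0.626. The following were chosen after seeing the data. Cluster 7 alone gave Bmx at 0.084 and the arterial list at 0.18 in vascular endothelial-like nuclei, clusters 0 and 4 alone 611 higher fibroblast genes, and clusters 11 and 22 of resolution 2 alone 350.0 higher and 872 lower endocardial genes. The share ratio was 0.8002 for fibroblast-like nuclei with cluster 1, 1.13 for vascular endothelial-like nuclei with cluster 6, 1.13 for endocardial-like nuclei without cluster 16 and 0.416 for cardiomyocyte-like nuclei without cluster 18.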
